A study of Mus musculus with 9 samples.

Results

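Proneural and intermediate progenitor regulators are the transcription factors and signalling modifiers that switch on when a dividing cortical progenitor commits to making neurons. The 8 genes described here are Neurog1, Neurog2, Neurod4, Eomes, Insm1, Btg2, Hes6 and Mfng. They were taken by symbol: every probe set that the annotation of the array names by one of these symbols alone was used, which gave 15 probe sets out of 34945 with a single symbol, and 8 genes out of 18193. RNA of cultured mouse cells was measured on 9 Affymetrix Mouse430_2 arrays, 3 for each of 3 groups. The yNSCs were neural stem cell-like cells obtained from cortical neurons that carried lentiviral rtTA and doxycycline-inducible wild-type YAP. Doxycycline was added to induce YAP until the first spheres formed, and the authors describe routine passage of yNSCs in its absence afterwards. The yNSCs were kept as spheres in the medium of native neural stem cells. That medium, DMEM/F12 supplemented with the growth factors EGF and bFGF, heparin and N2, also served the native NSCs. The neurons came from cortices of late embryos or newborn pups and were held in Neurobasal with B27 and AraC, a drug that kills dividing cells. The neuronal cultures are enriched for neurons rather than pure, and the yNSCs started from such cultures. The tissue and age from which the native NSCs came are not given in the sources used here. The labels call the replicates of each group biological, with letters A, B and C.

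In the developing cortex the bHLH factors Neurog1 and Neurog2 pair with E proteins, bind short DNA motifs called E-boxes and start neuronal differentiation. They raise Delta ligands, which activate Notch in neighbouring cells, and Notch holds those neighbours as stem cells through Hes1 and Hes5. Between the stem cell and the neuron lies the intermediate progenitor, a short-lived dividing cell marked by the T-box factor Eomes (also called Tbr2). The zinc finger protein Insm1 promotes the formation of these progenitors. Btg2 (also called Tis21) is an antiproliferative protein and p53 target that marks neuron-producing divisions. Hes6 is a Hes family member that opposes Hes1, Neurod4 is a bHLH factor that acts after the proneural step, and Mfng is a fringe glycosyltransferase that changes how Notch receptors answer their ligands.

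Promoter sequence was read for Hes6, Btg2 and Neurog2, because the first 2 of these genes were higher and Neurog2 lower in both stem cell groups than in neurons. The sequences are from RefSeq on the mouse build GRCm38.p6 and cover the 250 bases before the start of transcription, 5′ to 3′ on the strand of the gene. Capitals mark 2 motifs. The first is the E-box, CANNTG, which reads the same on both strands, and the second is the CCAAT box, CCAAT or its reverse complement ATTGG. Hes6 has 2 annotated starts on the minus strand of chromosome 1, and their windows are chr1:91413223-91413472 and chr1:91414039-91414288. The window of Btg2 is chr1:134079156-134079405 on the minus strand, and that of Neurog2 is chr3:127632886-127633135 on the plus strand.
Hes6, window at chr1:91413223-91413472: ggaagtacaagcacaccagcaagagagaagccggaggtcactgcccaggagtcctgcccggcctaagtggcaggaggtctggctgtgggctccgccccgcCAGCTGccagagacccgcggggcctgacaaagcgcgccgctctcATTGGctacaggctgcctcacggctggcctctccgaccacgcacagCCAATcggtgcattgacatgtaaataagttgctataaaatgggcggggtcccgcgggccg
Hes6, window at chr1:91414039-91414288: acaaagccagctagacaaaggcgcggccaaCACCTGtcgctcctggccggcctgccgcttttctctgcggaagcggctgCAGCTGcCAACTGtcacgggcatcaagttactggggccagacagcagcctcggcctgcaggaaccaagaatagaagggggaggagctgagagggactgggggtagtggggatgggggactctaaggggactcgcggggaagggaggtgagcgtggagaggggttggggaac
Btg2: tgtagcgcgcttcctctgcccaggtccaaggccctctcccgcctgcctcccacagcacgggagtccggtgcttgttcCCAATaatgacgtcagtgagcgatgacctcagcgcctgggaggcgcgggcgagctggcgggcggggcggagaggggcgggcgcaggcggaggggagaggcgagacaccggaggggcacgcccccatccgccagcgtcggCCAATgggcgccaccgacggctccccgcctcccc
Neurog2: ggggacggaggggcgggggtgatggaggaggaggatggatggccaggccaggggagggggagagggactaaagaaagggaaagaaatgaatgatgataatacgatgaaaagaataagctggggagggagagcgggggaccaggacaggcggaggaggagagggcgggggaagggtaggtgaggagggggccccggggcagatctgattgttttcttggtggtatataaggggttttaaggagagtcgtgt
The first Hes6 window held 1 E-box, CAGCTG, 150 bases before the start, and 2 CCAAT boxes, 106 and 60 bases before it. The second Hes6 window held 3 E-boxes at 220, 171 and 164 bases before the start and no CCAAT box. Btg2 had no E-box and 2 CCAAT boxes, 173 and 34 bases before the start, and the Neurog2 window held neither motif. No E-box overlapped a CCAAT box. Across 32851 RefSeq windows of the same length, 66.2% held an E-box and 33.8% a CCAAT box, so a match is common in both cases. Of the 8 genes, all except Insm1 and Mfng were matched to a promoter entry, with 8 windows in all. Of the others, Neurog1 had no E-box and 1 CCAAT box, Eomes had no E-box and 2 CCAAT boxes, and the 2 windows of Neurod4 had neither.

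The arrays were alike in overall level, with medians between 4.90 and 5.02, and replicates of a group correlated at 0.992 to 0.998 over all genes. NSC replicate A stood somewhat apart, with 162 genes more than 2-fold away from the other 2 NSC arrays, against 1 to 30 for each other array. Leaving that array out ended 1 call among the 8 genes, that of Neurog1 in yNSCs against NSCs. The labelled cell types were checked against marker genes. The mean over 7 neuronal markers was 6.22 to 6.30 in yNSC arrays, 5.91 to 6.10 in NSC arrays and 11.46 to 11.53 in neuron arrays. The mean over 7 neural stem cell markers was 10.75 to 10.78 in yNSCs, 10.27 to 10.56 in NSCs and 9.57 to 9.60 in neurons, a narrower gap. Of these 7, 5 were higher than in neurons in each stem cell group, and Slc1a3 was lower in NSCs (-1.38). The neuron cultures also carried 6 microglial markers at a mean of 8.11 to 8.74, against 4.56 to 4.61 in yNSCs and 3.62 to 3.68 in NSCs, and interneuron markers at 9.68 to 9.88, against 6.18 to 6.30 in yNSCs and 5.05 to 5.52 in NSCs. Astrocyte markers averaged 9.03 to 9.16 in yNSCs, 6.74 to 7.49 in NSCs and 8.82 to 9.04 in neurons, and oligodendrocyte precursor markers averaged 7.63 to 7.74 in yNSCs, 8.92 to 8.99 in NSCs and 8.55 to 8.63 in neurons. The genes of these 2 lists did not move together. In yNSCs against NSCs Gfap (5.42) and Aqp4 (4.83) were higher and Aldoc (-1.20) lower, while Aldh1l1 and S100b were not called. In NSCs against neurons Cspg4 (1.57), Olig2 (2.70) and Olig1 (1.29) were higher, and Pdgfra (-2.46) and Sox10 (-1.40) lower. Markers of endothelium were low in all groups, at 3.42 to 3.67, 3.48 to 3.62 and 3.67 to 3.90 in yNSCs, NSCs and neurons, with Pecam1 and Tek below the lower quartile of the arrays. The part of these other cells in the results below was not tested. In RNA of a whole culture, fewer expressing cells and less RNA per cell cannot be told apart.

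The 8 genes did not move as a block. In yNSCs against neurons, Btg2 and Hes6 were higher, Neurog2 and Insm1 lower, and 4 genes were not called. In NSCs against neurons, Btg2, Hes6, Insm1 and Mfng were higher, Neurog1 and Neurog2 lower, and 2 were not called. In yNSCs against NSCs, Insm1, Btg2, Hes6 and Mfng were lower, Neurog1 was higher, and 3 were not called. Calls are from limma fitted to all 18193 genes, at a Benjamini-Hochberg adjusted p under 0.05, and values are log2 expression levels. The cultures differ in a very large share of genes, which sets the scale for these counts. In yNSCs against neurons 34.6% of all genes were called higher and 27.9% lower, against 25% and 25% of the 8. In NSCs against neurons the background was 33.3% higher and 34.1% lower, against 50% and 25% of the 8. In yNSCs against NSCs it was 21.3% higher and 18.0% lower, against 12.5% and 50% of the 8. The 4 of 8 lower in yNSCs against NSCs and the 4 of 8 higher in NSCs against neurons were above these shares, and the other 4 counts were below them. With 8 genes, none of the counts is read as particular to the list. The median difference of the 8 genes was -0.03, 0.53 and -0.23 in the 3 comparisons in that order, beside -0.01, -0.07 and 0.07 over all genes. The comparisons with neurons share the neuron arrays and are therefore not independent of each other.

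**Figure D1:**
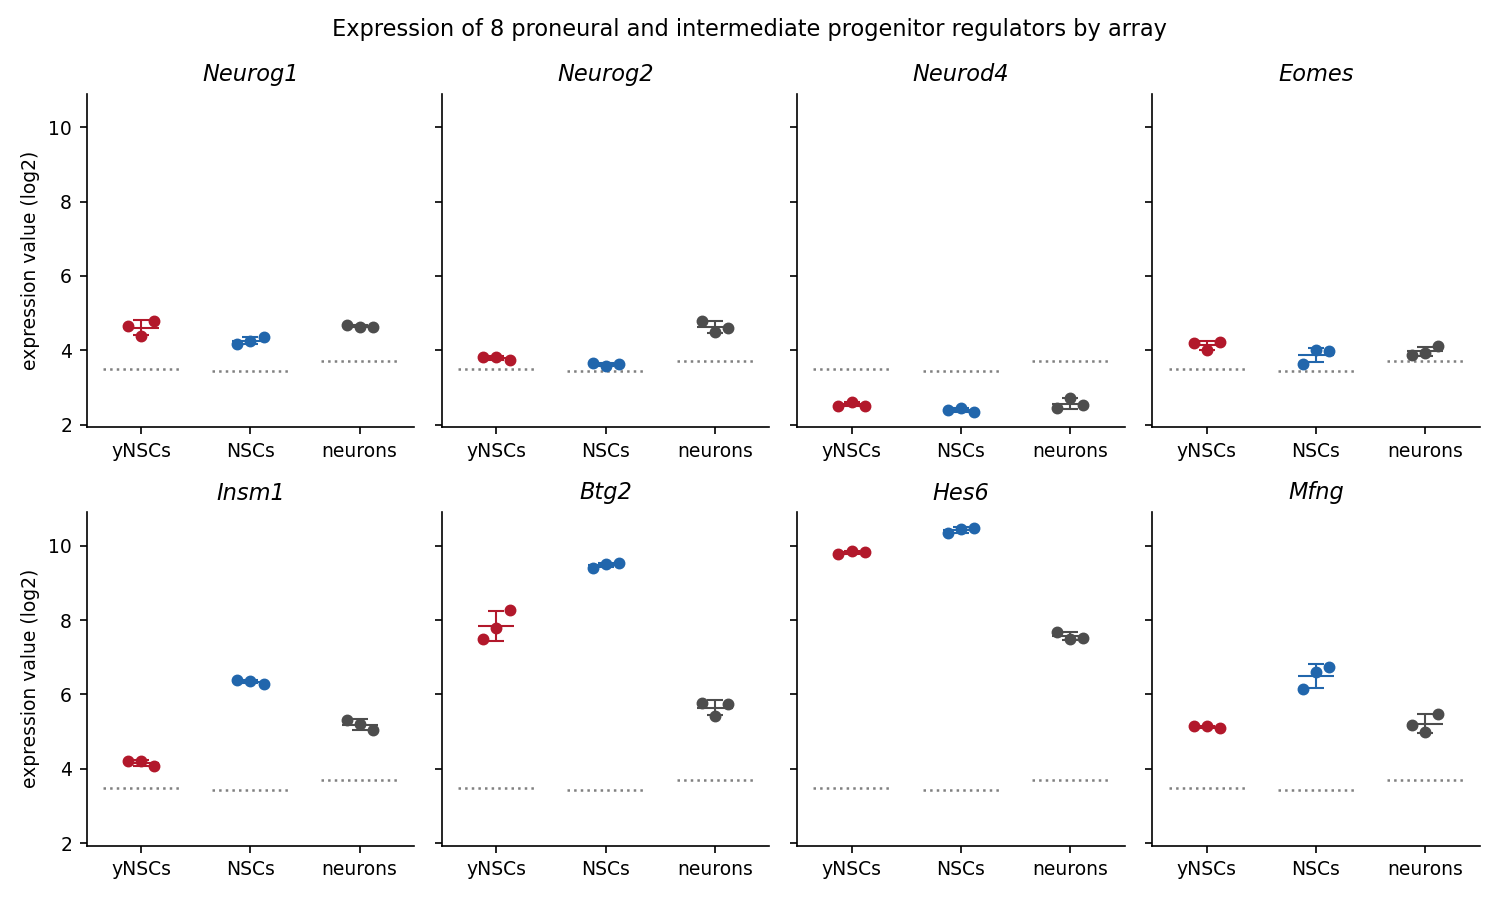
Expression of the 8 genes on each array (log2, vertical axis), with yNSCs, NSCs and neurons from left to right; points are the 3 arrays of a group, bars the mean ± SD, and dotted lines the lower quartile of all probe sets in that group (3.49 in yNSCs, 3.43 in NSCs and 3.71 in neurons). In the upper row the group means of a gene span at most 0.997, with Neurod4 under the dotted line throughout, whereas Insm1, Btg2, Hes6 and Mfng in the lower row are highest on all 3 NSC arrays.

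The proneural bHLH factors were low in every culture. Neurog2 read 3.82, 3.82 and 3.73 on the yNSC arrays, 3.65, 3.58 and 3.64 on the NSC arrays and 4.79, 4.48 and 4.59 on the neuron arrays. All neuron arrays were above all stem cell arrays, and the yNSC arrays lay just above the NSC arrays. The mean was 3.79 ± 0.05 in yNSCs, 3.62 ± 0.04 in NSCs and 4.62 ± 0.16 in neurons (SD, n = 3 each). The difference was -0.83 (SE 0.104, adjusted p = 1.8e-05) in yNSCs against neurons, a level 1.78-fold lower. In NSCs against neurons it was -0.997 (SE 0.104, adjusted p = 3.26e-06). The 2 stem cell groups differed by 0.17 (95% interval -0.06 to 0.39), which did not pass the test (adjusted p = 0.244) although their arrays did not overlap. Both stem cell means lay only slightly above the lower quartile of the arrays, 3.49 in yNSCs and 3.43 in NSCs. Neurog2 was the only one of the 8 genes called lower than in neurons in both yNSCs and NSCs.

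Neurog1, the close relative of Neurog2 in the dorsal cortex, gave 4.65, 4.39 and 4.78 in yNSCs, 4.16, 4.25 and 4.36 in NSCs and 4.69, 4.63 and 4.63 in neurons. The NSC arrays were the lowest, and the yNSC arrays overlapped those of neurons. Neurog1 was lower in NSCs than in neurons by a difference of -0.39 (SE 0.116, adjusted p = 0.00968), a call that was lost with quantile normalization again (-0.22, adjusted p = 0.0945). In yNSCs against neurons its difference was -0.04 (95% interval -0.30 to 0.21, adjusted p = 0.764). Between the stem cell groups, Neurog1 was 0.35 higher in yNSCs (SE 0.116, adjusted p = 0.0305), a 1.27-fold difference. That call was lost when NSC replicate A or B or yNSC replicate A or C was left out, with differences of 0.26 to 0.35 and adjusted p of 0.0752 to 0.133. The second Neurog1 probe set was under the lower quartile in all groups, at 2.38, 2.44 and 2.39 in yNSCs, 2.21, 2.44 and 2.39 in NSCs and 2.64, 2.67 and 2.60 in neurons, and it was called lower in NSCs than in neurons (-0.29, adjusted p = 0.0244) but not called between yNSCs and NSCs (adjusted p = 0.706).

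Neurod4, which acts after the Neurog genes in neuronal differentiation, was not above the lower quartile with any of its 3 probe sets. The probe set of highest mean read 2.51, 2.61 and 2.51 in yNSCs, 2.38, 2.44 and 2.34 in NSCs and 2.44, 2.72 and 2.53 in neurons. It was not called in any comparison, with differences of -0.02 (adjusted p = 0.88) in yNSCs against neurons, -0.18 (adjusted p = 0.147) in NSCs against neurons and 0.16 (adjusted p = 0.267) in yNSCs against NSCs. The second probe set read 2.33, 2.37 and 2.58 in yNSCs, 2.21, 2.16 and 2.26 in NSCs and 2.92, 2.60 and 2.69 in neurons. It was called lower in yNSCs (-0.31, adjusted p = 0.0383) and in NSCs (-0.53, adjusted p = 0.00181) than in neurons. The third, with readings between 2.22 and 2.84, was not called. At this signal a difference says little about the transcript, since every reading lay under the lower quartile of its array.

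Eomes, the marker of intermediate progenitors, was likewise low, and its 2 probe sets did not give the same picture. The first read 4.19, 4.0 and 4.22 in yNSCs, 3.64, 4.0 and 3.97 in NSCs and 3.87, 3.93 and 4.10 in neurons, and the groups overlapped. None of its differences was called, at 0.17 in yNSCs against neurons (95% interval -0.10 to 0.44), -0.10 in NSCs against neurons (-0.37 to 0.17) and 0.27 in yNSCs against NSCs (-0.00496 to 0.54). The other probe set read 3.12, 3.42 and 3.61 in yNSCs, 3.17, 2.93 and 3.25 in NSCs and 3.99, 3.88 and 3.54 in neurons. It was lower than in neurons by -0.42 in yNSCs, where the arrays overlapped (adjusted p = 0.037), and by -0.69 in NSCs, where they did not (adjusted p = 0.00222). Both probe sets put yNSCs 0.27 above NSCs, and neither difference passed the test (adjusted p = 0.115 in the fit over genes and 0.213 in the fit over probe sets).

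Insm1 and Mfng set native NSCs apart from both other cultures. Insm1 read 4.21, 4.21 and 4.06 in yNSCs, 6.38, 6.35 and 6.29 in NSCs and 5.32, 5.20 and 5.03 in neurons. The 3 groups did not overlap, with NSCs highest, neurons between and yNSCs lowest. The mean was 4.16 ± 0.09 in yNSCs, 6.34 ± 0.05 in NSCs and 5.18 ± 0.15 in neurons (SD, n = 3 each). In yNSCs Insm1 was 2.03-fold lower than in neurons (log2 difference -1.02, SE 0.105, adjusted p = 3.01e-06) and 4.53-fold lower than in NSCs (-2.18, SE 0.105, adjusted p = 1.58e-08). In NSCs it was 2.23-fold higher than in neurons (1.16, SE 0.105, adjusted p = 9.23e-07). Insm1 was thus the one gene of the 8 that was called against neurons in opposite directions in the 2 stem cell groups. The contrast between these groups tests only that they differ, and the directions rest on the 2 comparisons with neurons. A second Insm1 probe set gave the same order, with 3.80, 3.72 and 3.36 in yNSCs, 6.89, 5.65 and 6.42 in NSCs and 4.28, 4.41 and 4.44 in neurons. Its differences were -0.75 (adjusted p = 0.0198) in yNSCs against neurons, 1.94 (adjusted p = 2.06e-05) in NSCs against neurons and -2.69 (adjusted p = 3.83e-06) in yNSCs against NSCs.

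Mfng has 1 probe set. It read 5.14, 5.14 and 5.10 in yNSCs, 6.14, 6.60 and 6.75 in NSCs and 5.17, 4.99 and 5.48 in neurons. The yNSC arrays lay within the range of the neuron arrays, and all NSC arrays were above both. In yNSCs against neurons the difference was -0.09 (95% interval -0.44 to 0.27, adjusted p = 0.665). In NSCs against neurons Mfng was 2.43-fold higher (1.28, SE 0.162, adjusted p = 1.79e-05), and in yNSCs it was 2.58-fold lower than in NSCs (-1.37, SE 0.162, adjusted p = 2.88e-05).

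Btg2 and Hes6 were higher in both stem cell cultures than in neurons, and higher in NSCs than in yNSCs. Btg2 read 7.48, 7.78 and 8.26 in yNSCs, 9.41, 9.51 and 9.53 in NSCs and 5.77, 5.42 and 5.75 in neurons. The groups did not overlap, and the yNSC mean (7.84 ± 0.39) lay between that of NSCs (9.48 ± 0.06) and that of neurons (5.65 ± 0.20; SD, n = 3 each). Btg2 was 4.57-fold higher in yNSCs than in neurons (2.19, SE 0.174, adjusted p = 2.76e-07) and 14.3-fold higher in NSCs than in neurons (3.84, SE 0.174, adjusted p = 1.65e-09). In yNSCs it was 3.12-fold lower than in NSCs (-1.64, SE 0.174, adjusted p = 1.15e-05), so that on the log2 scale the yNSC mean stood 57.2% of the way from neurons to NSCs. The second Btg2 probe set read 7.38, 7.51 and 7.58 in yNSCs, 8.27, 8.78 and 8.67 in NSCs and 5.86, 5.52 and 6.05 in neurons. All 3 of its differences were called in the same directions and were smaller, at 1.68, 2.76 and -1.08.

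Hes6 read 9.77, 9.86 and 9.84 in yNSCs, 10.35, 10.45 and 10.49 in NSCs and 7.69, 7.48 and 7.53 in neurons. The yNSC arrays were close to each other and below every NSC array, and neurons were well below both. Hes6 was 4.78-fold higher in yNSCs than in neurons (2.26, SE 0.099, adjusted p = 1.4e-09) and 7.28-fold higher in NSCs than in neurons (2.86, SE 0.099, adjusted p = 1.64e-10). The yNSC mean stood 78.8% of the way from neurons to NSCs, and the step between the stem cell groups was -0.61 (SE 0.099, adjusted p = 0.000375), a 1.52-fold lower level in yNSCs. That step depended on the probe set. The main one is of a type whose probes can match several transcripts, and the other read 9.29, 9.41 and 9.37 in yNSCs, 9.19, 9.77 and 9.55 in NSCs and 6.78, 7.33 and 7.14 in neurons. It was higher than in neurons by 2.27 in yNSCs (adjusted p = 1.61e-07) and 2.42 in NSCs (adjusted p = 8.51e-08), and between yNSCs and NSCs its difference was -0.15 (95% interval -0.51 to 0.22, adjusted p = 0.535), with overlapping arrays.

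**Figure D2:**
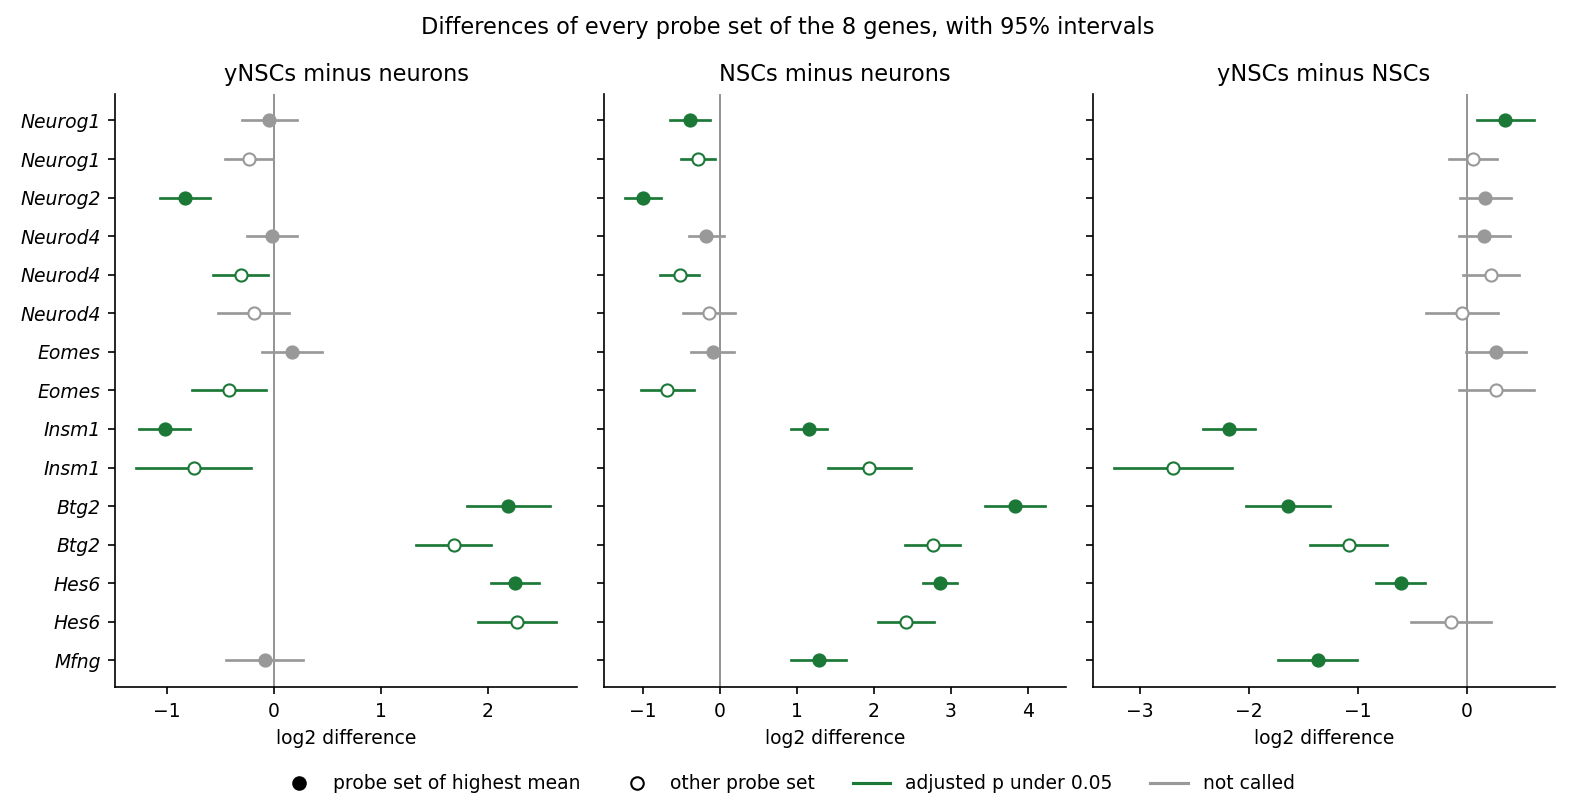
Log2 difference (horizontal axis) of each of the 15 probe sets, in yNSCs minus neurons, NSCs minus neurons and yNSCs minus NSCs; filled points are the probe set of highest mean of a gene, open points its other probe sets, bars 95% intervals of the fit over probe sets, and green marks an adjusted p under 0.05. Both Insm1 probe sets lie left of 0 in the panels of yNSCs and right of 0 in that of NSCs minus neurons, and the 2 Hes6 points part most in yNSCs minus NSCs, at -0.61 and -0.15.

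Of the 15 probe sets, yNSCs had 4 higher and 5 lower than neurons, NSCs had 7 higher and 5 lower than neurons, and yNSCs had 1 higher and 6 lower than NSCs. Over all 34945 probe sets, 33.2% were called higher and 26.1% lower in yNSCs against neurons, 32.9% and 31.7% in NSCs against neurons, and 21.4% and 18.5% in yNSCs against NSCs. No gene had probe sets called in opposite directions in any of the 3 comparisons. The signal of the 3′ minus the 5′ control probe sets, an indirect reading of RNA quality, was highest in NSCs for both controls. For beta-actin it was 0.19 to 0.31 in yNSCs, 0.56 to 0.70 in NSCs and 0.03 to 0.21 in neurons, on the log2 scale. For Gapdh it was -0.09 to -0.04 in yNSCs, 0.11 to 0.28 in NSCs and -0.19 to -0.17 in neurons. The part of this gradient in the higher NSC levels of Insm1, Btg2, Hes6 and Mfng was not tested.

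Proneural factors need partners and act with other bHLH proteins, so 12 such genes were read beside Neurog1, Neurog2 and Neurod4. In yNSCs against neurons 4 were higher and 7 lower (median -0.56), and in NSCs against neurons 4 were higher and 7 lower (median -0.77). Neurod6, a factor of differentiated neurons, lay under the lower quartile at 2.31 in yNSCs and 2.11 in NSCs, and its differences from neurons, -7.69 in yNSCs and -7.89 in NSCs, reach only as far as the background of the arrays lets them. Neurod1, which acts after Neurog2, averaged 3.51, 3.40 and 7.64 in yNSCs, NSCs and neurons, with both stem cell means beside that quartile. On the other side stood an E protein that dimerizes with proneural factors, Tcf12, at 11.80, 11.59 and 9.13, and the oligodendrocyte lineage factor Olig2, at 10.78, 11.51 and 8.81. Between yNSCs and NSCs 9 of the 12 were not called and 3 were lower, namely the E protein Tcf3 (-0.83, adjusted p = 0.000177), Olig2 (-0.73, adjusted p = 0.000178) and the E protein Tcf4 (-0.43, adjusted p = 0.0147). Neurod6 (0.20) and Neurod1 (0.12) did not pass the test between the stem cell groups.

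A wider list of 20 genes of intermediate progenitors and newborn neurons gave 4 higher and 13 lower in yNSCs against neurons (median -1.38), and 5 higher and 12 lower in NSCs against neurons (median -0.84). Dcx, a microtubule protein of migrating neurons, was -7.02 in yNSCs and -6.74 in NSCs against neurons, sizes that are likewise limited by background, since its mean was 3.16 in yNSCs, under the lower quartile, and 3.44 in NSCs, at it. Gadd45g, a growth arrest gene, was higher, at 1.96 in yNSCs and 2.14 in NSCs. The chromatin remodeller Chd7 was higher than in neurons by 0.64 in yNSCs and 2.47 in NSCs, and the radial glial factor Pax6 by 1.13 in yNSCs and 1.45 in NSCs. In yNSCs against NSCs 1 gene of the list was higher and 8 were lower (median -0.23). The lower ones were led by RNA-binding proteins of young neurons, Elavl4 (5.03 ± 0.11 in yNSCs and 7.84 ± 0.32 in NSCs, difference -2.81, adjusted p = 7.86e-08) and Elavl2 (-2.06, adjusted p = 5.1e-07), and by Myt1, a zinc finger factor (-1.93, adjusted p = 7.48e-06). The gene that was higher was Penk, the proenkephalin gene, at 7.67 in yNSCs, 4.49 in NSCs and 8.80 in neurons (3.18 between the stem cell groups, adjusted p = 1.73e-08).

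Notch signalling is where proneural factors act on neighbours, where Mfng modifies the receptors and where Hes6 meets Hes1. Of 22 Notch ligands, receptors, fringes and effectors, 10 rose and 5 fell in yNSCs against neurons (median 0.21), and 14 rose and 3 fell in NSCs against neurons (median 1.17). Over all genes, 34.6% were higher and 27.9% lower in the first comparison, and 33.3% and 34.1% in the second. The ligand Jag1 (4.11 in yNSCs and 4.30 in NSCs) had the largest difference of the list in both. Rbpj, the DNA-binding partner of Notch, was higher than in neurons by 2.58 in yNSCs and 2.57 in NSCs, and the receptor Notch1 by 1.87 in yNSCs and 3.27 in NSCs. In yNSCs against NSCs 3 genes were higher and 11 lower (median -0.40), beside 21.3% and 18.0% of all genes. The Notch effector Hes5 averaged 4.22 ± 0.11 in yNSCs, 8.09 ± 0.29 in NSCs and 5.05 ± 0.22 in neurons, a difference of -3.88 between the stem cell groups (adjusted p = 3.73e-09). The Delta ligand Dll3 averaged 5.35 ± 0.08, 8.47 ± 0.34 and 6.41 ± 0.05 in yNSCs, NSCs and neurons (-3.11 between the stem cell groups, adjusted p = 1.41e-08). Both were also below neurons in yNSCs and above them in NSCs, the order seen for Insm1. Higher in yNSCs than in NSCs were the Notch antagonist Numbl (0.53, adjusted p = 0.00123), the ligand Jag2 (0.34, adjusted p = 0.0363) and the receptor Notch4 (0.48, adjusted p = 0.0255), whose NSC mean lay at the lower quartile.

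The other members of the fringe family and the Delta ligand Dll1, named here after their values were seen, set Mfng in context. Lfng averaged 6.72 in yNSCs, 7.47 in NSCs and 4.99 in neurons, so that unlike Mfng it was higher than in neurons in yNSCs too (1.73, adjusted p = 2.52e-08). Rfng was lower than in neurons in both, at 7.52, 8.18 and 9.01 in yNSCs, NSCs and neurons. All 3 fringe genes were lower in yNSCs than in NSCs, by differences of -1.37 for Mfng, -0.75 for Lfng and -0.65 for Rfng. Dll1, a target of proneural factors, averaged 6.55 ± 0.02 in yNSCs, 8.74 ± 0.34 in NSCs and 6.76 ± 0.06 in neurons, with a difference of -2.19 between the stem cell groups (adjusted p = 2.34e-07) and -0.21 in yNSCs against neurons (adjusted p = 0.241).

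**Figure D3:**
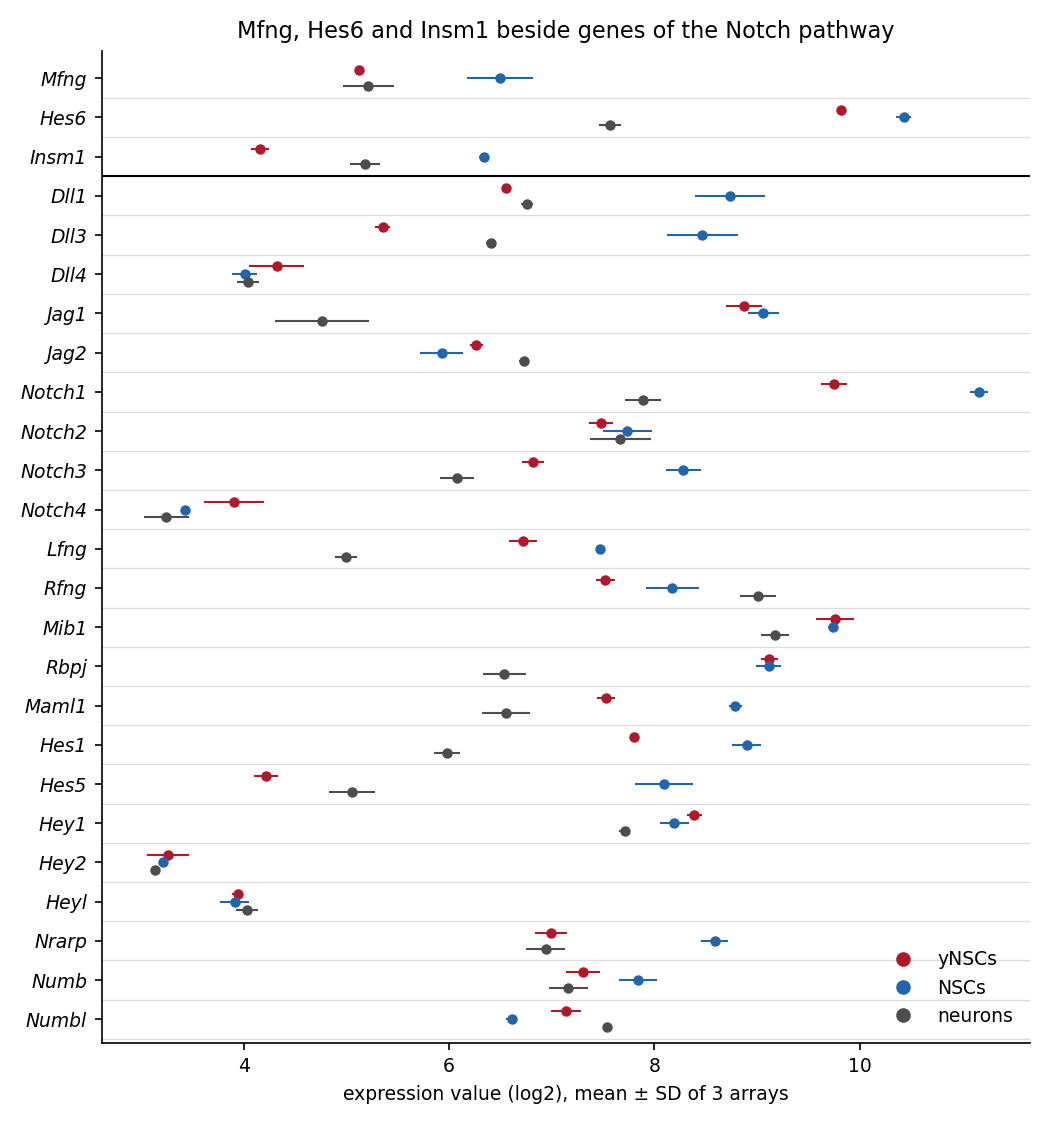
Expression (log2, horizontal axis) of Mfng, Hes6 and Insm1, above the line, and of 22 Notch pathway genes below it; points are means of 3 arrays and bars ± SD, with yNSCs, NSCs and neurons drawn from top to bottom within each row. Mfng, Dll1 and Nrarp place yNSCs beside neurons and NSCs to the right, Insm1, Dll3 and Hes5 place yNSCs to the left of neurons, and Jag1 and Rbpj place both stem cell groups together.

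A list of bHLH antagonists held the Id genes, Hes1 and Hes5, which oppose bHLH factors, and Rest, a zinc finger repressor of neuronal genes. Of these 7 genes, 4 rose and 3 fell in yNSCs against neurons (median 1.82), 5 rose and 2 fell in NSCs against neurons (median 2.92), and yNSCs had 3 higher and 2 lower than NSCs (median 0). Id1, an HLH protein that ties up E proteins, averaged 11.04 in yNSCs, 8.61 in NSCs and 4.70 in neurons, the largest difference of the list in yNSCs against neurons (6.34). Id3 averaged 9.78 in yNSCs, 9.78 in NSCs and 4.80 in neurons. Id4 averaged 8.38 in yNSCs, 5.98 in NSCs and 10.17 in neurons. Rest was higher than in neurons by 2.27 in yNSCs and 2.62 in NSCs. Between the stem cell groups Id1 and Id4 were higher in yNSCs by 2.43 and 2.40, and Hes5 and Hes1 lower, by differences of -3.88 and -1.10.

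Btg2 belongs to the BTG and Tob family of antiproliferative proteins, of which 4 other genes were measured. Tob2 was higher than in neurons by 1.42 in yNSCs and 2.25 in NSCs, and Tob1 by 1.08 and 1.67. Btg1 was higher by 0.95 in NSCs (adjusted p = 4.84e-06), and its difference in yNSCs against neurons was -0.22 (adjusted p = 0.0806). In yNSCs against NSCs Btg1 (-1.17, adjusted p = 2.56e-06), Tob2 (-0.84, adjusted p = 5.11e-05) and Tob1 (-0.59, adjusted p = 0.007) were lower, as Btg2 was, and Btg4 was not called in any comparison.

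Btg2 rose beside genes of dividing cells. Of 9 cell cycle genes, 7 rose and 1 fell in yNSCs against neurons (median 2.85), and in NSCs against neurons 8 were higher and Cdkn1b was not called (median 3.39). The proliferation marker Mki67 averaged 9.70 ± 0.14 in yNSCs, 11.10 ± 0.39 in NSCs and 6.41 ± 0.21 in neurons, and Cdk1 averaged 10.05, 10.32 and 5.71. Between the stem cell groups 5 were lower in yNSCs and 4 not called (median -0.55), the lower ones led by Cdkn1c, a cell cycle inhibitor (-2.07, adjusted p = 5.17e-06), cyclin A2, Ccna2 (-1.49, adjusted p = 4.58e-06) and Mki67 (-1.40, adjusted p = 5.91e-05). All 8 measured p53 targets besides Btg2 were higher than in neurons in both yNSCs (median 2.01) and NSCs (median 1.98), among them Eda2r (4.18 in yNSCs and 4.61 in NSCs) and the cell cycle inhibitor Cdkn1a (2.85 and 3.39). Between the stem cell groups 1 of the 8 was higher in yNSCs, Phlda3 (1.03), and 4 were lower, with Zmat3 at -0.82 and Cdkn1a at -0.55. The other 3 were not called, and the median was -0.455. The part of p53 in the Btg2 levels was not tested.

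**Figure D4:**
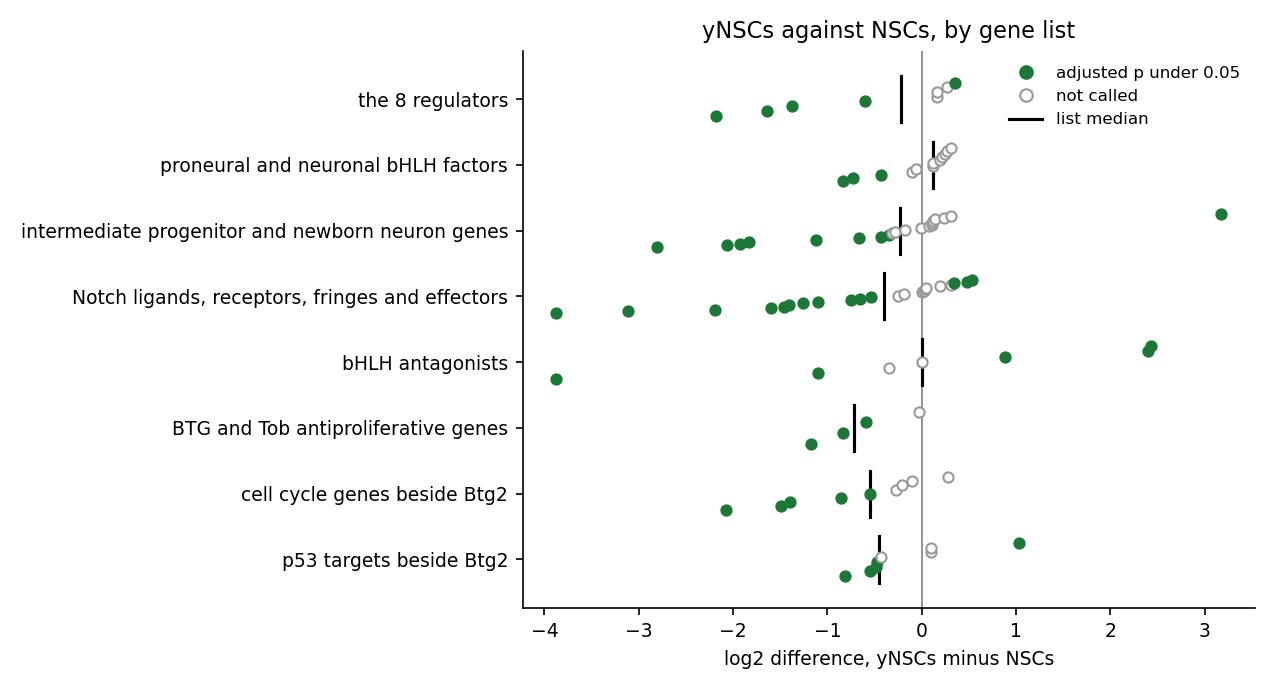
Log2 difference in yNSCs minus NSCs (horizontal axis) for the 8 regulators and 7 gene lists; each point is 1 gene, green where the adjusted p is under 0.05, and the black bar is the median of the list. Hes5, which stands in both the Notch list and that of bHLH antagonists, is at -3.88, and the 8 regulators split into 4 lower genes, Neurog1 at 0.35 and 3 open points between 0.16 and 0.27.

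Genes with the most similar pattern were looked for among 7206 genes whose 3 group means span at least 1 on the log2 scale, by the root mean square gap between centred group means (n = 3 groups). For Insm1 the closest were Tox3 (0.0567) and Nhsl2 (0.0582), and for Btg2 they were Kifc1 (0.0191) and Espl1 (0.0315). For Hes6 they were Cdk2ap1 (0.0223) and the ribosomal protein gene Rpl14 (0.0236), and for Mfng they were Gm10033 (0.00831) and Bicra (0.0189). Gm10033 was low, with a neuron mean of 3.67 under the lower quartile of 3.71 in neurons. Of the 4, Insm1 had the widest gap to its nearest gene. With 3 means a gene and 7206 candidates, the size of these gaps says little.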

How the data were processed

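Total RNA of 3 yNSC, 3 NSC and 3 neuron cultures was extracted with Trizol, labelled as biotinylated cRNA and hybridized to Affymetrix Mouse430_2 arrays. The authors deposited 1 log2 value per probe set, computed with RMA. Its version, and which arrays entered it together, are not given in the sources used here. They were used as deposited, and the number of arrays limits the precision.

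Of 45101 probe sets, 64 controls, 932 with several symbols and 9160 not named were left out. Of the 34945 left, 34741 matched a RefSeq mouse gene by gene ID. Each gene was read at its probe set of highest mean (9010 genes had several), and the other probe sets of the 8 genes were fitted in a second model over all probe sets. RMA does not separate a low signal from background, so a group mean under the lower quartile of its arrays was called near background. A linear model with 3 group means was fitted over 18193 genes with limma 3.58.1 in R 4.3.3 (6 residual and 5.59 prior degrees of freedom), after being tested on simulated data. Tests were two-sided and moderated, with Benjamini-Hochberg adjustment over all genes and a threshold of 0.05. Differences are the first group named minus the second. An exact permutation test of 3 arrays against 3 cannot go below 0.1 and was not used.

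The 8 genes, the gene lists and the markers were chosen with earlier results of these data known. All 8 genes are named with every probe set; of each list, called genes with the largest differences in each direction, up to 4 a comparison, and up to 2 not called, beside others chosen after their values were seen; and as genes of like pattern, the 2 nearest to each gene whose group means span at least 1. Promoter windows came from RefSeq (GRCm38.p6). Alternatives were a replicate block, quantile normalization again, subtraction of array medians, averaging the probe sets of each gene, a filter on the 40% of genes of lowest mean, a robust prior with a variance trend, a minimum of 2-fold, a fit of the 6 arrays compared, and leaving out each array.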

Additional observations from a re-analysis of the deposited data

Results flagged for a closer look

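For 5 of the 8 genes the distance from neurons was not the same in yNSCs and NSCs, tested directly as the contrast of yNSCs with NSCs in limma over all 18193 genes. The difference was 0.35 for Neurog1 (adjusted p = 0.0305), -2.18 for Insm1 (adjusted p = 1.58e-08), -1.64 for Btg2 (adjusted p = 1.15e-05), -0.61 for Hes6 (adjusted p = 0.000375) and -1.37 for Mfng (adjusted p = 2.88e-05). Over all genes, 21.3% were called higher and 18.0% lower in this contrast. For Insm1, Btg2, Hes6 and Mfng the value was lower on all 3 yNSC arrays than on any NSC array, and for Neurog1 it was higher. The yNSC and NSC arrays of Neurog2 and Neurod4 did not overlap either, though neither gene was called. Separate arrays thus do not set the 5 genes apart. The share of all genes with separate arrays was not counted, so the separation is not read as a result about these genes. The Neurog1 call was lost without any 1 of 4 arrays, and the Hes6 difference was -0.15 at its other probe set (adjusted p = 0.535).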

How the results depend on the processing

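Of the values of single genes under the alternatives, 383 stayed on their side of the threshold, 4 newly passed it and 6 no longer did. No called difference changed sign, but some that were not called did. Neurog1 in yNSCs against neurons, for example, went from -0.04 to 0.11 with quantile normalization again. The calls of Neurog2, Insm1, Btg2, Hes6 and Mfng held under these alternatives wherever the gene was tested. The 2-fold minimum was applied to counts over all genes and not to single genes; the differences of Neurog2 from neurons (-0.83 and -0.997) and that of Hes6 between yNSCs and NSCs (-0.61) are under 2-fold. With quantile normalization again, 1 of the 8 genes was lower in NSCs than in neurons in place of 2, since Neurog1 was at -0.22 (adjusted p = 0.0945), and Eomes passed in yNSCs against neurons (0.39, adjusted p = 0.0123). With the mean of all probe sets, 4 were lower in NSCs than in neurons, adding Neurod4 (-0.28, adjusted p = 0.00991) and Eomes (-0.39, adjusted p = 0.00356), and in yNSCs against NSCs Eomes passed (0.27, adjusted p = 0.0461) and Neurog1 did not (0.20, adjusted p = 0.0867). Without the 40% of genes of lowest mean, 10916 genes and 3 of the 8 (Btg2, Hes6 and Mfng) were left to test, so that limma called 0 of the 8 lower in yNSCs or NSCs than in neurons and 0 higher in yNSCs than in NSCs, and over all genes 2901 were lower in yNSCs and 3093 in NSCs than in neurons. With arrays left out in turn, 0 to 1 of the 8 genes were higher in yNSCs than in NSCs. With a 2-fold minimum, 3336 genes rose and 1993 fell in yNSCs against neurons, 3388 and 2288 in NSCs against neurons, and 1102 and 1086 in yNSCs against NSCs. Arrays of the same replicate letter showed no strong shared variation: over 9 such pairs, deviations from the group means correlated at -0.105 to 0.0998. Pairs of different letters were not compared, so this cannot tell whether a letter marks a shared preparation. With the letter as a replicate block, 2 of the 8 genes rose and 2 fell in yNSCs against neurons, 4 and 2 in NSCs against neurons, and 1 and 4 in yNSCs against NSCs, the counts without it, and over all genes 6228 rose and 4987 fell in yNSCs against neurons. Low signal limits Neurod4 and the second probe sets of Neurog1 and Eomes, and the size of the differences of Neurod6 and Dcx from neurons. Neurog2 in both stem cell groups and the second Insm1 probe set in yNSCs (mean 3.63) lay only slightly above the lower quartile.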
